A study of Mus musculus with 7 samples.

Results

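Hotspots of accessible chromatin were examined at 10 immediate early response genes of mouse liver. These were Fos, Fosb, Jun, Junb, Egr1, Atf3, Ier2, Ier3, Myc and Btg2, out of 22365 genes with protein-coding transcripts in the mm9 annotation used. A hotspot was assigned to a member when it overlapped the gene body or the 20 kb on either side by at least 1 bp. The rule named the genes and used no measured value. All livers came from male C57BL/6 mice, 8 week old. Pulverized frozen liver was digested with Benzonase or with Cyanase, each at 0.25, 1 and 4 U, and nuclei purified from fresh liver were digested with DNase I. Benzonase and Cyanase are endonucleases that tolerate detergent, and DNase I is the enzyme traditionally used to map hypersensitive sites. The authors pooled the tags of each nuclease and deposited 1 list of hotspots per nuclease, so there are 3 lists and no replicates. No spread between animals or libraries can be given, no test between the lists was possible, and every difference below compares those lists. The enzyme, the preparation of the tissue and the pooling changed together and cannot be told apart.

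Immediate early genes are transcribed within minutes of a signal, without new protein synthesis. Serum response factor with its ternary complex partners and CREB, kept ready at the promoter, switch them on, and many of their products are transcription factors that carry the signal to later genes. In the liver they respond to partial hepatectomy, feeding and stress. A hotspot gives only the position where a nuclease cut more often than its surroundings. It holds no transcript level and, in these lists, no tag count.

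The promoters of 6 members are shown because their hotspots and motifs recur in the results. Each run is the gene's own strand of mm9, upstream of the annotated transcription start site (TSS). Capitals mark the motif matches named for that run, on either strand. GC boxes (GGGCGG) and the NF-kappaB sites of Fos and Fosb are not marked on their own. The run of Fos, chr12:86814520-86814819, spans bases -320 to -21, with the serum response element core (CArG box), 3 matches of TGACG and the TATA box TATAAA in capitals. That of Fosb, chr7:19895435-19895684, spans -290 to -41, with the CArG box, the CREB core TGACG and the EGR site GCGNGGGCG in capitals. In both, the CArG box is followed after 7 bases by a TGACG match on the other strand. That spacing was first seen in Fos and Fosb and then counted. It was held by 4 of 22365 promoters in their 500 bp upstream, Fos and Fosb included, and 606 of the 22365 held a CArG box there. The run of Ier2, chr8:87186752-87186871, spans -120 to -1, with the full cyclic AMP response element TGACGTCA in capitals. Btg2, chr1:135975718-135975917, is shown from -220 to -21 with TGACGTCA, the EGR site and the CCAAT box. Junb, chr8:87502638-87502787, is shown from -170 to -21 with the forkhead motif TGTTTAC, the CREB core TGACG, the CCAAT box and the TATA box TATAAA. Ier3, chr17:35958389-35958628, is shown from -240 to -1 with CCAAT and an NF-kappaB site. It is the promoter that lay in no DNase I hotspot.
Fos: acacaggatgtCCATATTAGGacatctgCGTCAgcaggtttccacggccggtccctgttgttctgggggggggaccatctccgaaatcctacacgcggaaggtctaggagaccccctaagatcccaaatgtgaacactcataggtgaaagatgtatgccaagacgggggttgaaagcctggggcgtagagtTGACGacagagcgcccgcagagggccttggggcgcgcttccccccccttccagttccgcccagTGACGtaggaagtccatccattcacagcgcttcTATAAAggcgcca
Fosb: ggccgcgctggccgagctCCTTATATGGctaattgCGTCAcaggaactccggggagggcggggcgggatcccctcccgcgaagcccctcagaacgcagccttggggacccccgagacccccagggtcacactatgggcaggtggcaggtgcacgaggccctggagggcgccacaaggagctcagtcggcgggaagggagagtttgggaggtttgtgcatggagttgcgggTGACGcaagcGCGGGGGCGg
Ier2: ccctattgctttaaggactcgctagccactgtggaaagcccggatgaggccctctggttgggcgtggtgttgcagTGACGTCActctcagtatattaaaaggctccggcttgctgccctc
Btg2: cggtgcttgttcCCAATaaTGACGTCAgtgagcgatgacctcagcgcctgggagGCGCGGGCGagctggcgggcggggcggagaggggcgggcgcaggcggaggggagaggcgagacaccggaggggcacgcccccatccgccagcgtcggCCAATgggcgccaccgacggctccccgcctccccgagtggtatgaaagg
Junb: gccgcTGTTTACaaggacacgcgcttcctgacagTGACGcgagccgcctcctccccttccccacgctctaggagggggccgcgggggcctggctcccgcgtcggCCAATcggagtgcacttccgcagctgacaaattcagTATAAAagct
Ier3: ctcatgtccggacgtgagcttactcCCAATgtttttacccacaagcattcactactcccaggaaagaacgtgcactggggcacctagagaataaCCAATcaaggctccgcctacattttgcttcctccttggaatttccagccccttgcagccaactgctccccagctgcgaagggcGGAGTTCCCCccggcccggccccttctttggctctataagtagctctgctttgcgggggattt

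Benzonase and Cyanase hotspots covered every base of these 6 runs. DNase I hotspots covered every base of the 5 others and 0 of the 240 bases of Ier3. Over the 250 bp upstream of the TSS in all 10 members, TGACG was found in 6, Fos, Fosb, Junb, Egr1, Ier2 and Btg2, against 19.5% of all promoters. The full element TGACGTCA was found in Ier2 and Btg2, against 1.94%. Each match of TGACGTCA holds a TGACG on either strand. The EGR site GCGNGGGCG was found in Fosb and Btg2, against 6.17%, and TGTTTAC in Junb and Myc, against 2.71%. The NF-kappaB site was found in Fos, Fosb and Ier3, against 7.74%. The GC box GGGCGG occurred in 7 members and 40.1% of all promoters, and CCAAT in 5 and 35.0%. The TATA box was found in 3 members, Fos, Junb and Myc, and 12.3% of promoters, and the ETS core CCGGAA in 1, Myc, and 14.1%. The GC box can overlap the EGR site, as in Fosb. No member held the AP-1 element TGACTCA, the E-box CACGTG or the STAT element TTCCNGGAA in this window, against 3.78%, 6.53% and 0.943% of all promoters. The CArG box was found in Egr1 alone within 250 bp, against 1.33%, and in Fos, Fosb and Egr1 within 500 bp, against 2.71%. Egr1 held 5 CArG boxes between -407 and -74. These matches are letters in a window, not sites shown to be bound.

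Every member was marked by hotspots in all 3 lists. The Benzonase list of 60910 hotspots placed 58 in the 10 windows, the Cyanase list of 57675 placed 60 and the DNase I list of 72286 placed 64. Per member, the median was 5 Benzonase, 5.5 Cyanase and 6 DNase I hotspots. The 7751 genes between 1240 and 13045 bp long, the range of the members, had a median of 2 in each list. Of those genes, 20.2% had no Benzonase hotspot, 21.9% no Cyanase hotspot and 24.2% no DNase I hotspot in the window, whereas no member lacked one.

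**Figure D1:**
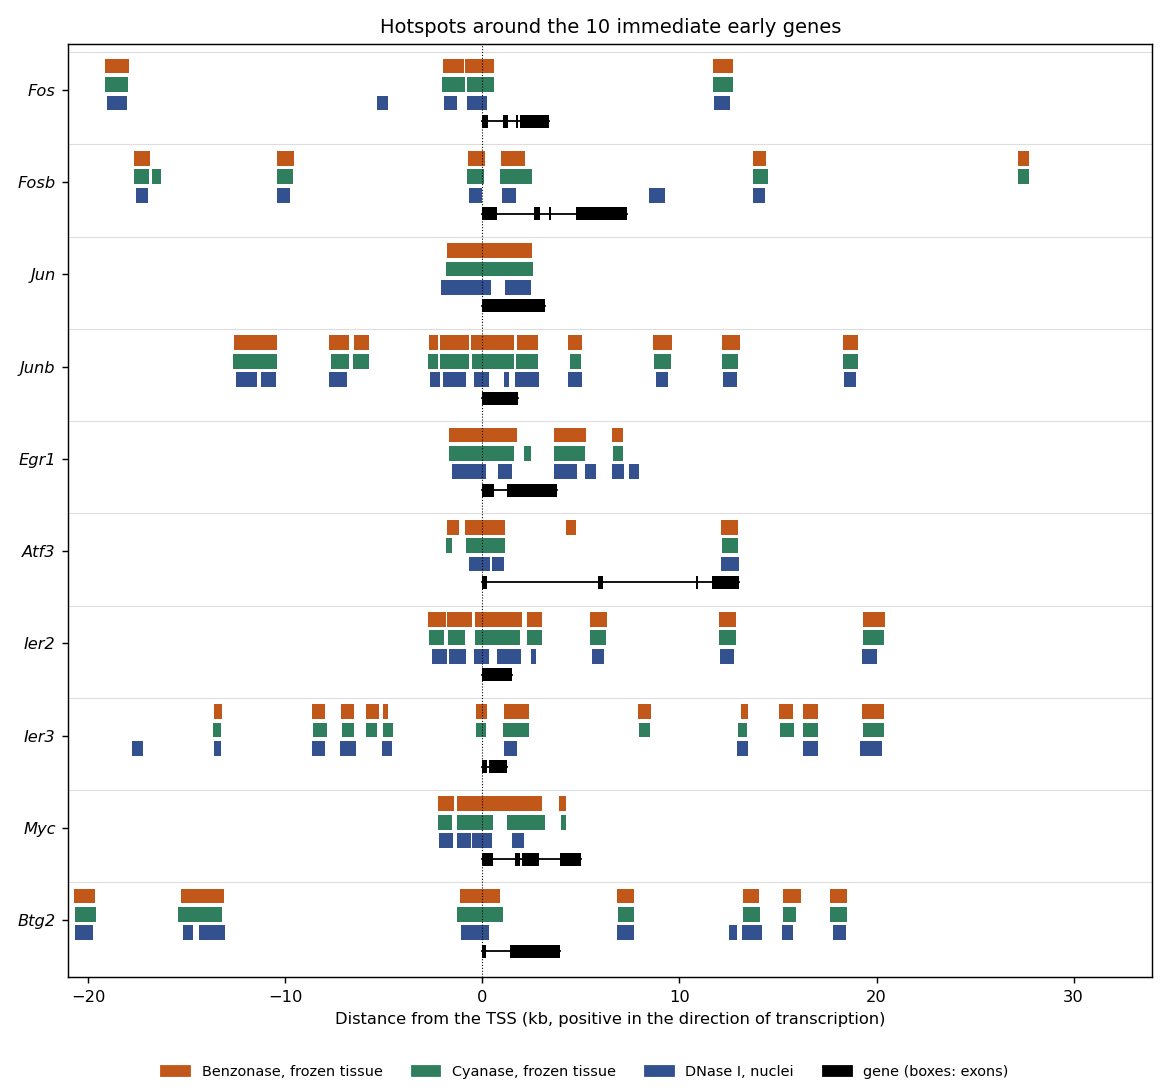
Hotspots of the 3 lists around each member, drawn by distance from the TSS in kb, positive in the direction of transcription, with the gene in black. The TSS of each gene lies at 0, where Benzonase and Cyanase hotspots are present in all 10 members and DNase I hotspots in 8.

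**Figure D2:**
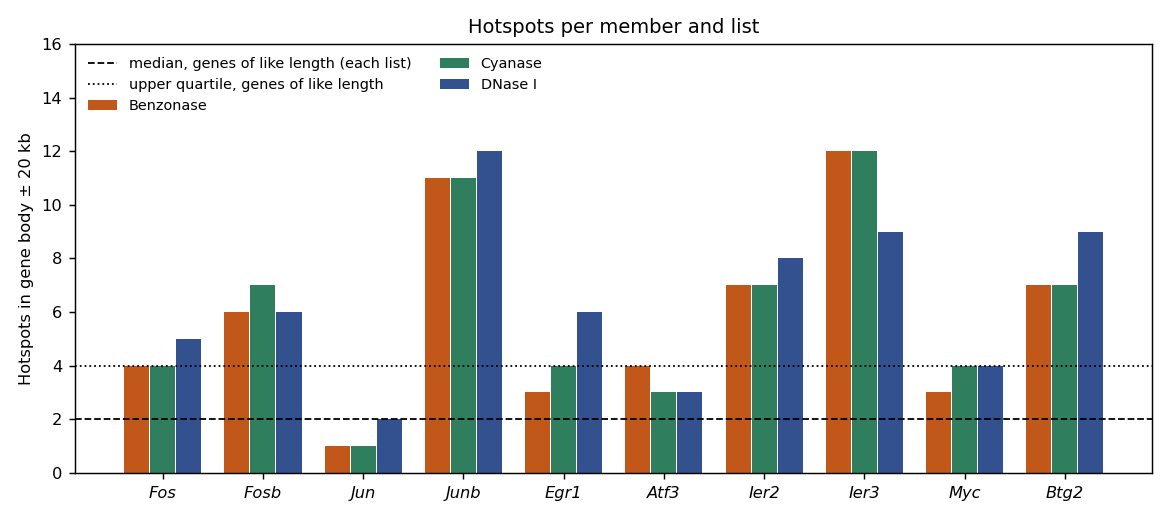
Number of hotspots of each list in the gene body and 20 kb either side of each member. The dashed line is the median, 2, and the dotted line the upper quartile, 4, of 7751 genes of like length. Junb and Ier3 stand highest and Jun lowest.

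The AP-1 subunits differed widely among themselves. Fos and Fosb are the partners that bind DNA only with a Jun protein, and Jun and Junb also pair with each other. Fos, on chromosome 12 from 86814840 to 86818223, had 4 Benzonase, 4 Cyanase and 5 DNase I hotspots. Fosb, on chromosome 7 from 19888070 to 19895394, had 6, 7 and 6 in the same order. Jun, on chromosome 4 from 94715725 to 94718913, had the fewest of the members, 1, 1 and 2, and all of them formed 1 region from -2082 to 2567 around its TSS. Junb, on chromosome 8 from 87500811 to 87502617, had 11, 11 and 12. Its window also held at least 1 TSS each of Rnaseh2a, Prdx2 and Hook2 inside hotspots of all 3 lists, and those hotspots are in its count. Atf3, a stress-induced partner of the Jun proteins, on chromosome 1 from 192994175 to 193007219, had 4, 3 and 3. The order within the AP-1 genes was the same in each list at its ends, with Junb highest and Jun lowest.

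Egr1 encodes a zinc finger factor and Myc the growth regulator of the basic helix-loop-helix class. Egr1, on chromosome 18 from 35020861 to 35024638, had 3 Benzonase, 4 Cyanase and 6 DNase I hotspots, and Myc, on chromosome 15 from 61816946 to 61821929, had 3, 4 and 4. In Egr1 the DNase I count was the highest of the 3. The other 3 members do not encode classical DNA-binding factors. Ier2, on chromosome 8 from 87185230 to 87186751, had 7, 7 and 8 hotspots. Ier3, a stress-response protein, on chromosome 17 from 35958629 to 35959868, had 12, 12 and 9. Its neighbours Flot1, Tubb5 and Mdc1 had their TSSs in hotspots of the same window. Btg2, an antiproliferative cofactor of mRNA decay, on chromosome 1 from 135971747 to 135975697, had 7, 7 and 9.

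DNase I gave more hotspots than each frozen-tissue list in 6 members, Fos, Jun, Junb, Egr1, Ier2 and Btg2, and 26.7% of the genes of like length did the same. It gave fewer than each in 1 member, Ier3, against 21.4% of those genes. The covered length went the other way. DNase I hotspots covered 51071 bp of the 10 windows, against 65745 bp for Benzonase and 63936 bp for Cyanase. The DNase I length was below the mean of the frozen-tissue lists in all 10 members, against 67.1% of 5501 genes of like length with hotspots in all 3 lists. The ratio of DNase I to that mean ran from 0.577 in Myc to 0.927 in Egr1, with a median of 0.790, and the median of the genes of like length was 0.856. In Myc the lengths were 5497 bp for Benzonase, 4792 bp for Cyanase and 2967 bp for DNase I. In Junb, where most was covered, they were 12481, 12071 and 9239 bp. The lists as wholes did not share this order, since DNase I hotspots covered 51.8 megabases of the genome and Benzonase and Cyanase 48.1 and 44.0, at median widths of 649, 652 and 641 bp.

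Hotspots of frozen tissue held the TSS of every member. A Benzonase hotspot held at least 1 TSS in 10 of 10 members, against 57.4% of all protein-coding genes, and a Cyanase hotspot in 10 of 10, against 55.7%. A DNase I hotspot held a TSS in 8 of 10, against 47.4%, and those 8 were in all 3 lists, against 46.1%. The remaining 2, Fosb and Ier3, had the TSS in Benzonase and Cyanase but not DNase I hotspots, as did 8.81% of all genes. These cases were unlike. At Fosb the DNase I hotspot ran from -687 to -3, so that it stopped 3 bp before the TSS, while the Benzonase and Cyanase hotspots went on to +142 and +106. At Ier3 the nearest DNase I hotspot began 1106 bp downstream, inside the gene's last exon. It ran on over a TSS of the neighbouring gene Flot1, which is known as a scaffold of lipid rafts. The Ier3 promoter hotspots were also the narrowest at any member's TSS in the frozen-tissue lists, 523 bp with Benzonase and 514 bp with Cyanase. In the sequences shown, Ier3 is thus the run that lay under both frozen-tissue hotspots and under none of DNase I.

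The hotspots at the other TSSs were wide in the frozen-tissue lists. Those of Myc measured 4336 bp with Benzonase, 1854 bp with Cyanase and 993 bp with DNase I. Those of Jun measured 4317, 4408 and 2519 bp, in the same order, and those of Egr1 3411, 3299 and 1707 bp. Those of Ier2 measured 2391, 2292 and 762 bp, of Junb 2198, 2126 and 794 bp, of Btg2 2069, 2300 and 1460 bp, of Atf3 1998, 1996 and 1050 bp and of Fos 1499, 1380 and 1041 bp. DNase I gave the narrowest hotspot at each of these 8 TSSs. At Fosb, Benzonase and Cyanase both gave 866 bp. The merged region at the TSS reached 2 kb or more in 7 members, against 19.0% of the genes with a TSS region of all 3 lists, and its median width was 2249 bp against 1410 bp.

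The lists were then compared downstream of the TSS, over the start of the transcribed unit. The DNase I hotspot at the TSS ended between 163 bp (Egr1) and 482 bp (Myc) inside the gene in the 8 members that had one. Benzonase hotspots ended between 142 and 3054 bp and Cyanase hotspots between 106 and 2567 bp in the 10 members. At Fos the ends lay at +614, +596 and +246 for Benzonase, Cyanase and DNase I. At Junb they lay at +1632, +1602 and +347, and at Ier2 at +1995, +1901 and +345. In 6 of those 8 members both frozen-tissue hotspots ended at least 500 bp beyond the DNase I hotspot, against 20.3% of 9570 genes. At Jun, Atf3 and Ier2 a further DNase I hotspot of the same region ended close to them, at +2479, +1094 and +1960. The frozen-tissue ends there were +2500 and +2567, +1129 and +1154, and +1995 and +1901. At Junb and Egr1 it ended at +1372 and +1484, farther short of them, and Btg2 had none. The widths, ends and gaps are thus in part the same observation. Myc was split, with the Benzonase end 2572 bp and the Cyanase end 67 bp beyond that of DNase I. This measure, like the gaps described next, was chosen after the positions were seen.

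In the 1 kb after the TSS, DNase I covered fewer bases than Benzonase and than Cyanase in all 10 members, against 77.4% of the 10303 genes with a TSS in all 3 lists. The same held in all 8 members whose TSS lay in all 3 lists. The members' medians were 1000 bp for Benzonase, 1000 bp for Cyanase and 363 bp for DNase I, and those of the 10303 genes were 723, 666 and 375 bp. Over those 8 members the medians were 1000, 1000 and 404 bp, and 1000 bp is the most the window can hold. In the 1 kb before the TSS, DNase I covered fewer bases than both in 6 of the 10 members and in 4 of those 8, against 53.9% of genes. There the medians of the 8 members were 980, 941 and 857 bp, and those of the genes 541, 508 and 465 bp. At 500 bp downstream, 80.0% of the members lay in a Benzonase hotspot, 80.0% in a Cyanase hotspot and 0% in a DNase I hotspot, and the shares of genes at that distance were 75.7%, 68.5% and 30.8%. That distance is the lowest point of the members' DNase I profile within 2 kb of the TSS, and 1 of the 10 members was covered at 475 and at 525 bp.

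**Figure D3:**
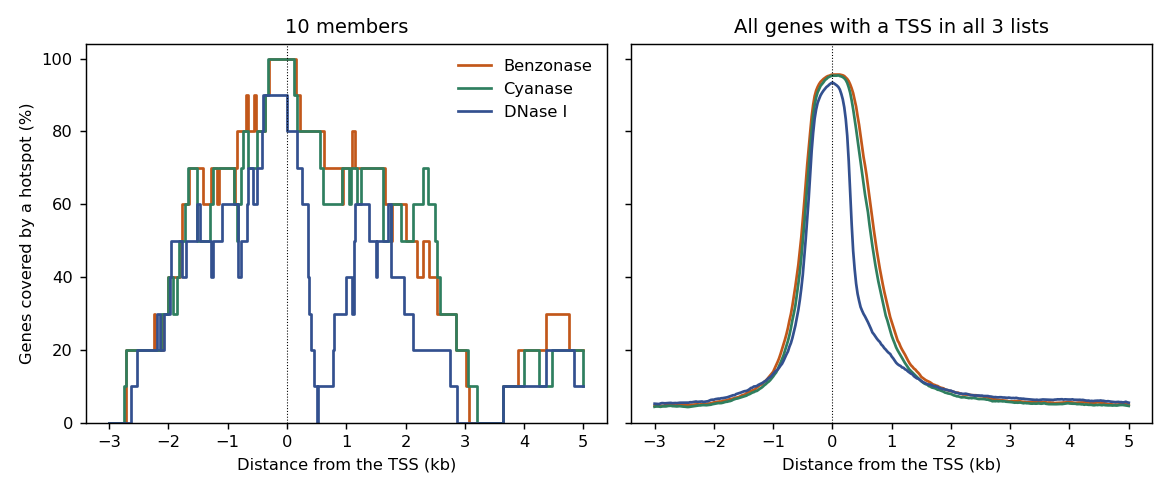
Share of genes covered by a hotspot at each distance from the TSS, in percent, for the 10 members on the left and for all genes with a TSS in all 3 lists on the right, 1 line per nuclease. In the members the DNase I line falls to 0 at 500 bp downstream and rises again beyond, while the lines of Benzonase and Cyanase stay at 80.0% there.

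Beyond this gap DNase I hotspots resumed. In 6 members, Jun, Junb, Egr1, Atf3, Ier2 and Myc, separate DNase I hotspots at the TSS were spanned by 1 continuous frozen-tissue hotspot, against 15.8% of 10239 genes with a TSS region of all 3 lists. Among regions of at least 2 kb, which 7 members had, those 6 among them, the share of genes was 49.9%. The reverse, separate frozen-tissue hotspots spanned by DNase I, was found at 3.58% of genes. There were 7 gaps in the members, 80 to 1042 bp long with a median of 629 bp, against a median of 191 bp for 1782 gaps of all genes. Both Benzonase and Cyanase spanned 6 of them, and Benzonase alone spanned the longest, in Myc. A gap lay wholly inside the gene in 6 of the 7 cases, the exception being the 80 bp gap upstream of Myc.

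The gaps crossed coding sequence in several members. At Junb the gap ran from 348 to 1121 bp after the TSS and its 774 bp were all coding sequence. At Ier2 it ran from 346 to 759 bp and its 414 bp were likewise all coding. At Jun it ran from 437 to 1132 bp, with 514 of its 696 bp in the untranslated part of the exon and 182 bp coding. The gap of Egr1, from 164 to 792 bp, held 298 coding bases, that of Myc, from 483 to 1524 bp, 30, and that of Atf3, from 387 to 502 bp, lay in the first intron. All 6 gaps downstream of the TSS lay wholly inside a CpG island. Their GC content was 63.4% at Jun, 66.3% at Junb, 66.9% at Ier2, 62.5% at Egr1, 53.6% at Myc and 48.3% at Atf3. The regions they belonged to had 57.6%, 62.5%, 57.3%, 62.9%, 57.7% and 60.1%. The gap was thus richer in GC than its region at Jun, Junb and Ier2 and not at Egr1, Myc and Atf3. The part of base composition in the gaps was not tested.

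**Figure D4:**
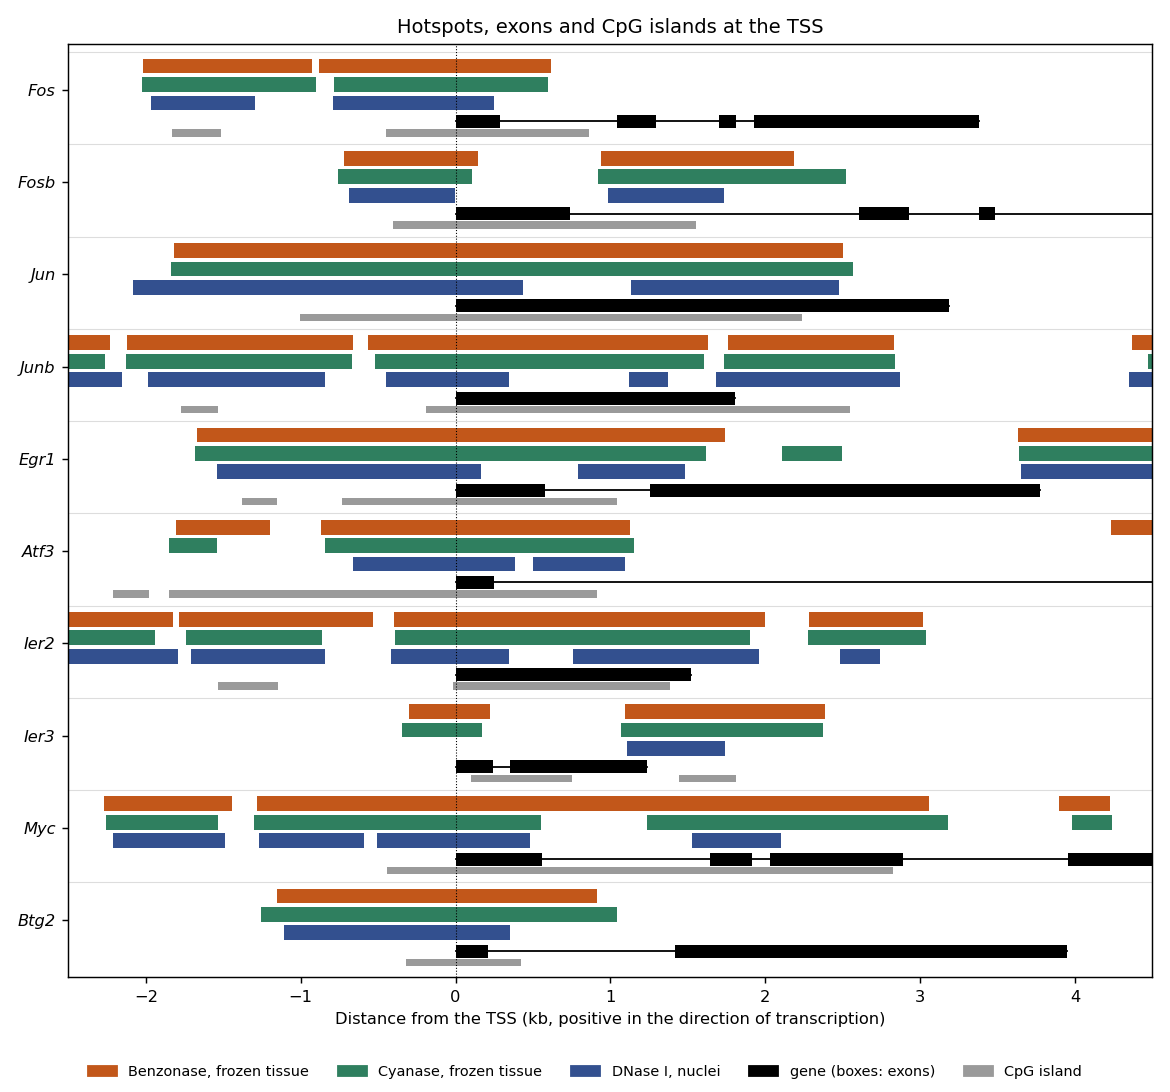
The same hotspots within 2.5 kb upstream and 4.5 kb downstream of the TSS, by distance in kb, with exons in black and CpG islands in grey. The DNase I hotspots of Jun, Junb, Egr1, Atf3 and Ier2 are interrupted downstream of the TSS, where the Benzonase and Cyanase hotspots run on.

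When the lists were merged by overlap, the 10 windows held 65 regions. Of these 49, or 75.4% (Wilson 95% interval 63.7 to 84.2, counting error only), were common to DNase I and frozen tissue, and all 49 were found in all 3 lists. DNase I unique regions were 5, or 7.69% (3.33 to 16.8), and Benzonase-Cyanase unique regions 11, or 16.9% (9.72 to 27.8). Over 70910 regions within 20 kb of protein-coding genes the shares were 49.7%, 26.2% and 24.1%. There, 31394 of the 35234 common regions were likewise found in all 3 lists. The DNase I unique share depended on the rule. It was 23.2% near the members and 30.2% near all genes when hotspots were joined only at an overlap of 50% of both, and 15.5% and 26.9% within 50 kb. Of the 11, 8 were found with both frozen-tissue enzymes, 1 with Benzonase alone and 2 with Cyanase alone. Jun and Ier2 had common regions only. Regions unique to DNase I lay near 5 members and regions unique to frozen tissue near 6, with Fosb, Egr1 and Ier3 in both groups.

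The 5 DNase I unique regions lay outside genes. Counted from the TSS, with negative values upstream, they lay from -5358 to -4766 at Fos, from 8451 to 9256 at Fosb, from 7445 to 7967 at Egr1, from -17754 to -17224 at Ier3 and from 12498 to 12944 at Btg2. The regions measured 447 to 806 bp. None overlapped a promoter, exon or intron of a protein-coding gene, where a promoter is the 2 kb before a TSS, and 4 were distal to any gene while that of Fosb lay within 2 kb after the gene's end. Of the 11 Benzonase-Cyanase unique regions, 3 overlapped a promoter, 4 an exon, 1 an intron and 3 were distal. One was the Ier3 promoter. Another 3 lay inside a member's own gene, in an exon of Egr1 and of Myc and in an intron of Atf3. Those of Egr1 and Atf3 came from 1 enzyme each, Cyanase and Benzonase. Ier3 held the most, 4, with 2 of the others in exons of Flot1 and Tubb5, and Fosb held 2, of which 1 covered the TSS of Rtn2, which encodes a reticulon. The places of all regions of each class were not counted, so whether this placement is particular to the members is not known. Genome-wide, the paper places DNase I unique hotspots preferentially in distal and intronic sequence, and reports an enrichment of Benzonase-Cyanase hotspots at promoters.

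The classes differed in base composition, as they did over the genome. Member regions common to the preparations had a median GC content of 54.9% (43.5 to 62.9), DNase I unique regions 45.7% (41.1 to 47.0) and Benzonase-Cyanase unique regions 57.7% (46.7 to 66.4). Over all regions the medians were 48.8%, 42.3% and 54.3%. By its median, each class near the members was richer in GC than its genome-wide counterpart, and the order was the same. Only 1 Benzonase-Cyanase unique region, from -5915 to -5261 at Ier3 with 46.7%, lay within the range of the DNase I unique regions. Against the 5 kb on each side, GC was higher in 42 of 49 common, 1 of 5 DNase I unique and 10 of 11 Benzonase-Cyanase unique regions. A CpG island overlapped 26 common regions, or 53.1%, none of the DNase I unique regions and 4 Benzonase-Cyanase unique regions, or 36.4%. Over all regions the shares were 22.1%, 0.198% and 14.1%.

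**Figure D5:**
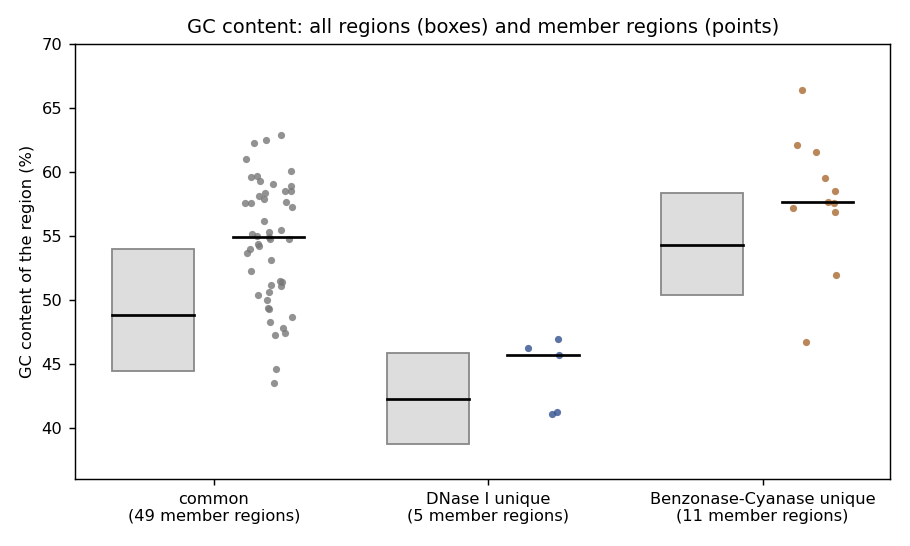
GC content in percent by class of region. Boxes span the quartiles of all regions of the class with a line at the median, and points are member regions with a line at their median. The 5 DNase I unique points lie between 41.1 and 47.0%, below all but 1 of the 11 Benzonase-Cyanase unique points.

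The central 150 bases of a region from each unique class show the contrast, on the forward strand of mm9 and with no capitals because no motif is marked. That near Fosb, chr7:19886466-19886615, lies from 8779 to 8928 bp after the TSS, was covered by DNase I alone and has 33.3% GC. That near Junb, chr8:87508683-87508832, lies from -6215 to -6066, was covered by Benzonase and Cyanase alone and has 66.7% GC. They were chosen after the values were seen, as the DNase I unique region of lowest GC and the only unique region of Junb. Over its whole length the region near Fosb has 41.1% GC and that near Junb 56.9%. Over the central 150 bases the medians of the 2 classes were 47.3% and 62.7%. The classes overlapped there, with 56.0% in the DNase I unique region of Fos and 41.3% in a Benzonase-Cyanase unique region of Ier3.
Fosb DNase I unique: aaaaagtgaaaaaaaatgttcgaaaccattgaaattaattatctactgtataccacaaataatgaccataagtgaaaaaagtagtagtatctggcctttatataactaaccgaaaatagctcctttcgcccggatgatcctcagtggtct
Junb Benzonase-Cyanase unique: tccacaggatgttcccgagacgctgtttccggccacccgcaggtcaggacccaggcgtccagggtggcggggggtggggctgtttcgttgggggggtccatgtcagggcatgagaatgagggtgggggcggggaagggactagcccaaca

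Common regions included shared distal elements. Of the 49, 9 lay at a member's own TSS, 7 at the TSS of another gene, 3 elsewhere in the member's gene body and 30 elsewhere. Each was counted once, in that order. Those elsewhere were not all distal. By place, 21 of the 49 overlapped a promoter, 6 an exon and 1 an intron. Another 1 lay within 2 kb after a gene and 20 were distal. The regions from 1071 to 2385 at Ier3 and from 3635 to 5771 at Egr1 were counted at another TSS and also overlapped the member's gene. Fos had distal common regions from -19154 to -17901, with 55.3% GC, and from 11690 to 12720, with 58.9%. Its promoter region was preceded by another from -2024 to -902. Btg2 had 7 common regions, of which only that from -1259 to 1040 held its TSS, and the widest of the others, 2362 bp, began at -15430. The 7 regions of Ier2 were all common, and reached from -2730 to 20447.

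Other genes of the response were examined in the same way. Of a list of 50 other immediate early genes, 49 were matched by symbol and Cebpd was not. A Benzonase hotspot held a TSS in 44, a Cyanase hotspot in 44 and a DNase I hotspot in 40, and those 40 were in all 3 lists. Over all protein-coding genes the shares were 57.4%, 55.7% and 47.4%, and 46.1% for all 3 lists. The TSS lay in the frozen-tissue lists alone in 4 of the 49, a share near the 8.81% of all genes. These were Dusp2, a nuclear MAP kinase phosphatase, Maff, a small Maf partner, Ctgf, a matricellular protein, and Areg, a ligand of the epidermal growth factor receptor. The 5 with no hotspot at a TSS in any list were Fosl1, Egr3, Egr4, Ptgs2 and Csrnp1, relatives of Fos and Egr1 among them. No gene of the list had a TSS in DNase I hotspots alone, which is rare over all genes too. Of the 22365, 10599 had a TSS in a DNase I hotspot and 10303 in hotspots of all 3 lists. Bridged gaps were found in 15 of the 38 with a TSS region of all 3 lists, against 15.8% of all such genes. Of the 38 regions, 20 reached 2 kb, against 19.0% over all such genes. Among regions that wide the bridged share of all genes was 49.9%, so the 15 cannot be read apart from width. Their 311 regions were 59.2% common, 17.7% DNase I unique and 23.2% Benzonase-Cyanase unique. Over the regions within 20 kb of all protein-coding genes the shares were 49.7%, 26.2% and 24.1%.

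The regulators upstream of the members, such as Srf, Creb1, Elk1 and the MAP kinases, all lay in hotspots of frozen tissue. A TSS of all 17 lay in a Benzonase and in a Cyanase hotspot and that of 14 in a DNase I hotspot. Over all protein-coding genes those shares were 57.4%, 55.7% and 47.4%, and 8.81% had a TSS in the frozen-tissue lists but not in DNase I. The 3 missing from DNase I were Elk3, a ternary complex factor, Crebbp, a histone acetyltransferase that binds CREB, and Rps6ka1, a kinase that phosphorylates CREB. Of 9 further AP-1 partners, 8 had a TSS in Benzonase, 8 in Cyanase and 7 in DNase I hotspots, beside the same shares of all genes. The TSS of Batf3 lay outside DNase I hotspots and that of Batf, a factor of lymphoid cells, outside those of all 3 lists, although both genes had hotspots of every list in their windows.

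The tissue was checked with marker genes. The TSSs of all 8 hepatocyte markers lay in hotspots of all 3 lists, and those of all 6 genes of muscle, nerve and stem cells in none. Over all protein-coding genes the shares were 57.4% for Benzonase, 55.7% for Cyanase, 47.4% for DNase I and 46.1% for all 3 lists. Lists of 3 to 8 genes allow only a description beside these shares. Markers of other liver cells differed between the lists. Of 4 Kupffer cell markers, 0 had a TSS in Benzonase, 1 in Cyanase and 3 in DNase I hotspots, with Csf1r and Cd5l in DNase I alone. Of 3 leukocyte markers only Ptprc was in a hotspot, with DNase I. Of 3 stellate cell markers 2, 3 and 0 were in Benzonase, Cyanase and DNase I hotspots, of 4 sinusoidal endothelial markers 2, 2 and 1, and of 4 bile duct markers 2, 1 and 1. In whole tissue, fewer cells of a type and less accessible chromatin per cell cannot be told apart. The part of cell composition in the differences at the members was not tested.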

How the data were processed

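DNA released from mouse liver by limited nuclease digestion was sequenced. For each nuclease the authors aligned reads to mm9 (Eland or Bowtie), combined its libraries and kept hotspots passing a 0% false discovery rate, with a further cutoff on tag density at the mode in their methods. The file headers of the Benzonase and Cyanase lists name the rate, that of the DNase I list does not, and none names the cutoff. Whether the cutoff was applied to these lists, and the rate to the DNase I list, is thus not known from the headers. Each list holds more hotspots than the paper counts for that nuclease. The deposited lists, 1 per nuclease, give only positions (chromosome, start, end) and no tag count, density or score, so that the tags behind each hotspot are not known and width is the only size. Library depth was not used here. The DNase I list pools libraries, per the file headers. There were 0 columns of other samples. Start positions were read as counted from 0 and raised by 1.

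Genes came from GENCODE M1 on NCBIM37, the build of mm9, without the mitochondrial chromosome. The 5'-most TSS of protein-coding transcripts was the reference for distances. Hotspots of the 3 lists that shared at least 1 bp were merged into 94491 regions. CpG islands were called in the mm9 sequence as stretches of 200 bp or longer whose GC content exceeded 50% and whose ratio of observed to expected CpG exceeded 0.6. Motifs were searched on both strands of the 250 bp before the TSS. Python 3.11.15, numpy 2.4.6, scipy 1.17.1, numba 0.67.0 and matplotlib 3.10.9 were used, and the merging, island and motif steps were tested on simulated data. Groups followed the titles of the samples. With 1 pooled list per nuclease no test was made. Alternatives changed the window, the overlap, the hotspot widths, the TSS set, the islands and the promoter length. Shares of all genes stand beside the members as a description, and all members are named. The members and gene lists were chosen with earlier results of these data known.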

Additional observations from a re-analysis of the deposited data

How the results depend on the processing

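Leaving out single libraries was not possible, because the tags of each nuclease had been pooled. No paired analysis was possible because each nuclease has 1 pooled list. Of 61 alternative values for the main counts and shares, 44 stayed close to the main value, meaning within 1.5 times for counts and the ratio of covered bases, within the Wilson interval for shares and within the quartiles over regions for GC content. Other windows changed the number of hotspots in Benzonase, Cyanase and DNase I order to 17, 18 and 19 with the gene body alone, to 30, 31 and 37 with 5 kb and to 95, 96 and 101 with 50 kb either side, and DNase I stayed the highest. With only hotspots of at least each list's lower width quartile, the numbers were 54, 55 and 55, so DNase I no longer exceeded Cyanase. Joining hotspots only where they overlapped by 50% of both lowered common regions to 54.9% and raised DNase I unique regions to 23.2%. With 50 kb either side common regions were 62.1% and DNase I unique regions 15.5%, and in the gene body alone DNase I unique regions were 0%. GC over the central 150 bp was 59.3% in common, 47.3% in DNase I unique and 62.7% in Benzonase-Cyanase unique regions, in the same order. Islands of at least 500 bp overlapped 12 common regions. The count of TSSs in DNase I hotspots was 8 in each alternative other than a distance of 1 kb, which gave 9. Within 500 bp upstream, 3 members held a CArG box, 3 CCGGAA and 1 CACGTG. Among thresholds added after seeing the data, 6 members with farther hotspot ends became 7 at 250 bp and 4 at 1000 bp, and 6 with spanned gaps became 5 for gaps of at least 200 bp. Positions may be off by 1 bp, since the lists' header lines and rows differ by that much.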
